A study of Homo sapiens with 8 samples.

Results

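The genes examined were 10 negative regulators of mitogen-activated protein kinase (MAPK) signalling: the dual-specificity phosphatases DUSP1, DUSP4, DUSP5, DUSP6 and DUSP10, the Sprouty genes SPRY2 and SPRY4, the Sprouty-related genes SPRED1 and SPRED2, and PHLDA1. They were chosen by symbol, and 10 of 10 were found, each under 1 identifier, among the 55679 gene identifiers of the count table. RNA sequencing had been done on 8 libraries of the triple-negative breast cancer lines MDA-MB468 and BT549. Each line was present as parental cells and as chronic exposure (CE) cells, and each of these 4 backgrounds had a control library without drug and a library from cells treated for 6 hours with 1 μmol/L Acetalax (oxyphenisatin acetate, a laxative compound). The CE cells were derived from the parental line of the same name by passaging in rising Acetalax up to 40 μmol/L, and both CE libraries of each line came from cells kept without the drug for 2 weeks beforehand. Their controls therefore share that past exposure. The submitters call the CE cells resistant clones, and how many clones each line stands for is not given in the sources used here. There was 1 library for each condition, so single pairs of libraries have no replicate check. The tests below take the cell lines and backgrounds as replicates, and the comparison of the 2 lines takes the 4 conditions.

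Receptor tyrosine kinases activate RAS, RAF, MEK and the kinase ERK in turn, and active ERK drives transcription of genes whose products shut the pathway down again. The DUSP proteins act at the bottom, where they remove phosphates from the MAP kinases themselves, and the Sprouty and Spred proteins act higher up, between the receptor and RAF. Some of these transcripts are made in answer to ERK activity. The levels of those are widely used as a readout of the pathway in cancer cells, including breast cancer cells with high EGFR. The counts hold no measurement of ERK activity, and whether each gene examined follows it in these cells was not tested.

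Promoter sequences are shown for SPRY2, SPRY4 and DUSP6, whose profiles over the libraries were like each other (below, correlations of 0.912 to 0.955), and for DUSP1, an immediate-early gene with a different profile. The sequences are from RefSeq (GRCh38.p14), run from 250 bases before to 50 bases after the annotated start, and are written in the direction of transcription, which is the minus strand for these 4 genes. RefSeq entries of this kind matched 8 of the 10 members, with 12 promoters in all. Both strands were searched for TGACGTCA (the cAMP response element, CRE), TGANTCA (AP-1), CCGGAA (ETS factors, some of which ERK phosphorylates), GCGNGGGCG (EGR factors) and the CArG box of serum response factor. Capitals mark the matches.
SPRY2, chr13:80341077-80341376: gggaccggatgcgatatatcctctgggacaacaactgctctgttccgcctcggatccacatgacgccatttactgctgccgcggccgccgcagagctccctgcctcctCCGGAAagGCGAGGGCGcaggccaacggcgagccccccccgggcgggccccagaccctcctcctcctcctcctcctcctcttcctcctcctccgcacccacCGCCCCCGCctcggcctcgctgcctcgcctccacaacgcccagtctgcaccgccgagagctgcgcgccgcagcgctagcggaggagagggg
SPRY4, chr5:142324198-142324497: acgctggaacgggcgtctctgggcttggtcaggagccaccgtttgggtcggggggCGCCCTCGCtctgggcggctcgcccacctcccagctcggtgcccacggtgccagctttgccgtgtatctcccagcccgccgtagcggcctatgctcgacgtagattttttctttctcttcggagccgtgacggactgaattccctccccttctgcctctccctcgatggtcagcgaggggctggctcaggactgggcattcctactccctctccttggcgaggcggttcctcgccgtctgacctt
DUSP6, chr12:89352452-89352751: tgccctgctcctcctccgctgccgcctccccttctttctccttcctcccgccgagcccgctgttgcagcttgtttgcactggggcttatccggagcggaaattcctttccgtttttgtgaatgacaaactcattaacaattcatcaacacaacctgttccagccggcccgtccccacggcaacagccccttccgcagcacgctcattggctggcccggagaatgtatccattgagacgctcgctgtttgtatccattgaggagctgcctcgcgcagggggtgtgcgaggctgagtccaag
DUSP1, chr5:172771146-172771445: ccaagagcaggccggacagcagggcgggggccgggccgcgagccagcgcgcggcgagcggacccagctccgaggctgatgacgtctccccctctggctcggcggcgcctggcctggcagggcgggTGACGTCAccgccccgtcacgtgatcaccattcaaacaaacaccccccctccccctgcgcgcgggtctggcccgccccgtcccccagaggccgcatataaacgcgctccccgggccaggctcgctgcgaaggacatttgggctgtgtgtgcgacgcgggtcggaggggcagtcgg

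The SPRY2 promoter shown, the farthest upstream of its 3, held an ETS match beginning 142 bases before the start and EGR matches beginning 134 and 41 bases before it. The SPRY4 promoter held an EGR match beginning 195 bases before the start, and the DUSP6 window held none of the 5 motifs. The DUSP1 promoter held a CRE beginning 125 bases before the start. Of the 35116 promoters in the RefSeq table, 1.85% held the CRE, 7.71% AP-1, 17.2% ETS, 9.43% EGR and 1.29% the CArG box. PHLDA1 (1 ETS match) and the second SPRED2 promoter (2 AP-1 matches) were the other members with a match, and CArG boxes were found in 0 of the 12 promoters. These are matches of letters and were not tested as binding sites.

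The libraries held from 42261122 to 54241728 counts on genes, a 1.283-fold range, and levels are given as CPM, the counts on a gene scaled to the total of its library. At that depth 1 CPM stands for 42.26 to 54.24 counts, and the 95% intervals given below cover counting error only. The epithelial markers CDH1, EPCAM, KRT8, KRT18 and KRT19 were at 118.9 CPM or more in the 4 MDA-MB468 libraries and the mesenchymal markers VIM, FN1, CDH2 and ZEB1 at 47.85 CPM or more in the 4 BT549 libraries. ESR1 and PGR were at most 5.152 CPM, markers of blood (PTPRC, CD3E and HBB) and endothelial cells (VWF) at most 0.7559 CPM, and ERBB2 between 41.18 and 95.16 CPM. PECAM1 was not analysed here.

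After Acetalax, 5 members (DUSP5, DUSP6, SPRY2, SPRY4 and PHLDA1) had higher levels than in the control library in MDA-MB468 parental, MDA-MB468 CE and BT549 CE cells. In BT549 parental cells SPRY2 and SPRY4 were higher and the other 3 were not (DUSP6 was at a log2 ratio of 0.02 with TMM scaling). DUSP4 was also higher in the first 3 backgrounds named, but in MDA-MB468 CE cells by a log2 ratio of 0.03, with a counting interval (-0.02 to 0.08) that included 0. In such bulk samples, fewer cells with a transcript and less transcript in each cell cannot be told apart. In MDA-MB468 parental cells, these 5 of the 10 members were at least 2-fold higher after Acetalax, against 4.48% of the 11135 genes that averaged 5 CPM or more over the libraries. In MDA-MB468 CE cells 2 of 10 (SPRY2 and PHLDA1) were, against 2.43% of genes. In BT549 parental cells 0 of 10 were, against 1.92% of genes, and in BT549 CE cells 6 of 10 were (those 5 and DUSP4), against 4.32% of genes. No member was 2-fold lower after Acetalax in any background. The median log2 ratio of the members was 1.168, 0.40, -0.08 and 1.16 in this order, beside medians of -0.09, -0.05, -0.11 and -0.19 over all 11135 genes. With edgeR's TMM scaling in place of the total counts the last of these medians was -0.03, and every ratio of the BT549 CE pair is higher on that scale by the same amount.

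**Figure D1:**
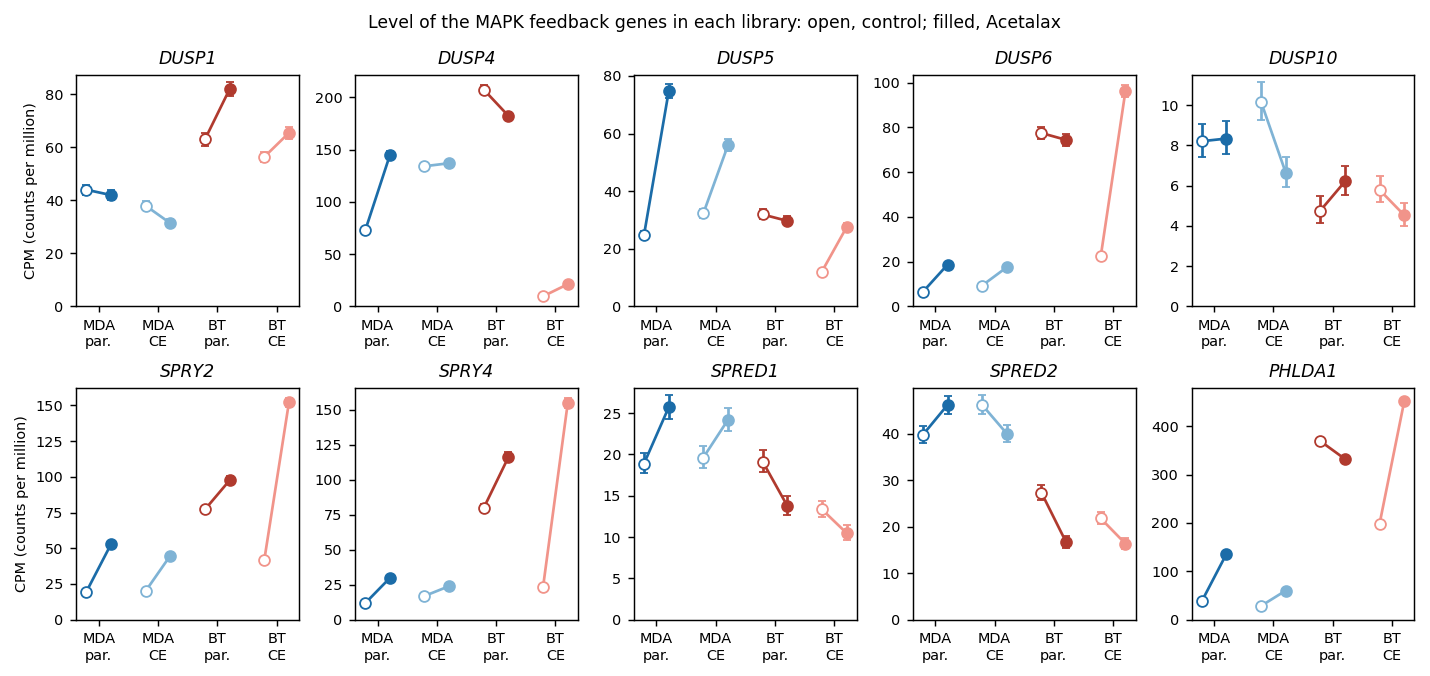
Level of each member in the 8 libraries, in CPM on a linear axis that starts at 0. Open points are control and filled points Acetalax libraries (1 library each), lines join the libraries of a background (MDA, MDA-MB468, BT, BT549, par., parental), and bars are 95% counting intervals. SPRY2 and SPRY4 go up along all 4 lines, and DUSP4 has its lowest point, 9.66 CPM, in the BT549 CE control.

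Among the Sprouty genes, SPRY2 encodes an adaptor that blocks the step from the receptor to RAS and RAF (chromosome 13, 80910111 to 80915086, minus strand, hg19). In MDA-MB468 it was at 19.56 CPM in parental control cells and 52.91 CPM after Acetalax, and at 20.07 and 44.89 CPM in CE cells. In BT549 the values were 77.14 and 97.55 CPM in parental cells and 41.50 and 152.0 CPM in CE cells. The treated library was the higher one in each of the 4 pairs, with log2 ratios of 1.44 (95% counting interval 1.33 to 1.54), 1.16 (1.05 to 1.27), 0.34 (0.27 to 0.40) and 1.87 (1.80 to 1.94). Over the 4 backgrounds SPRY2 rose by 1.29 on the log2 scale (SE 0.23, edgeR quasi-likelihood test, Benjamini-Hochberg adjusted p = 0.0379), and it was the 1 member called of 10, where 5.00% of the 19693 genes tested were called. The call was lost when MDA-MB468 parental cells (edgeR adjusted p = 0.178), MDA-MB468 CE cells (0.0545) or BT549 CE cells (0.0567) were left out, with log2 fold changes between 1.05 and 1.61 over the 4 fits that leave out a background. The other alternatives kept the call, with adjusted p from 1.17e-17 (edgeR without a filter on low counts) to 0.0379, and 1.4e-04 by DESeq2.

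SPRY4, a second Sprouty adaptor (chromosome 5, 141689992 to 141706020, minus strand, hg19), went from 11.76 to 29.81 CPM in MDA-MB468 parental cells and from 16.90 to 23.95 CPM in MDA-MB468 CE cells. It went from 79.81 to 116.1 CPM in BT549 parental cells and from 23.38 to 154.7 CPM in BT549 CE cells. All 4 treated libraries were again above their controls, and the last pair, 6.61-fold, was the largest ratio of any member (log2 2.73, interval 2.64 to 2.81), one reached by 0.278% of genes. Its log2 fold change over the backgrounds was 1.35 (SE 0.36), which edgeR did not call (adjusted p = 0.0684). SPRY2 and SPRY4 were the 2 members higher in all 4 pairs, where 12.8% of genes were. With TMM scaling DUSP6 joined them.

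Of the phosphatases that act on ERK, DUSP6 is the cytoplasmic one (chromosome 12, 89741009 to 89747048, minus strand, hg19). It was at 6.498 CPM in MDA-MB468 parental control cells and 18.67 CPM after Acetalax, and at 9.332 and 17.52 CPM in CE cells. In BT549 it was at 77.47 and 74.40 CPM in parental cells and at 22.36 and 96.22 CPM in CE cells. The pair of BT549 parental libraries, log2 -0.06 (interval -0.13 to 0.01), was the one not higher after Acetalax (0.02 with TMM scaling), and the BT549 CE pair was the largest, log2 2.10 (2.01 to 2.20). DUSP5, the nuclear phosphatase specific to ERK (chromosome 10, 112257596 to 112271302, plus strand, hg19), went from 24.86 to 74.69 CPM and from 32.26 to 56.00 CPM in MDA-MB468 parental and CE cells. It went from 31.90 to 29.68 CPM and from 12.08 to 27.49 CPM in BT549 parental and CE cells. Over the 4 backgrounds the log2 fold changes were 1.21 (SE 0.33) for DUSP6 and 0.96 (SE 0.26) for DUSP5, with edgeR adjusted p of 0.0687 and 0.0664. Neither was called by edgeR with all 4 backgrounds, and both were without BT549 parental cells (edgeR adjusted p = 0.0461 and 0.0381), where 311 of 19105 genes were called. That background held the lowest ratio of both genes, so leaving it out favours a call. Leaving out any other background gave 0 members called. With all 4 backgrounds DESeq2 called 5 members (DUSP5, DUSP6, SPRY2, SPRY4 and PHLDA1), edgeR without the filter on low counts called these and DUSP4, and these 6 had an unadjusted p under 0.05 in edgeR with the filter. Over all genes, DESeq2 called 2913 of 19693 and edgeR without the filter 3585 of 37154. In edgeR with the filter, 5523 of 19693 genes had an unadjusted p under 0.05.

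PHLDA1, a pleckstrin-homology domain protein that restrains receptor and AKT signalling (chromosome 12, 76419227 to 76427712, minus strand, hg19), had the highest level of the members per exon length in BT549. It went from 369.1 to 332.0 CPM in BT549 parental cells and from 198.2 to 451.7 CPM in BT549 CE cells. In MDA-MB468 it went from 37.82 to 135.8 CPM in parental and from 28.38 to 60.10 CPM in CE cells. Of the 4 pairs, BT549 parental cells had a slightly lower treated library (log2 -0.15, interval -0.19 to -0.12), and the other 3 log2 ratios were between 1.08 and 1.84. The fold change over the backgrounds was 1.09 on the log2 scale (SE 0.28), with an edgeR adjusted p of 0.0624, and without BT549 parental cells it was called (0.0316). Leaving out that pair, the lowest for PHLDA1, favours a call, and leaving out any other background gave 0 members called.

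DUSP4, a nuclear phosphatase of ERK, JNK and p38 on chromosome 8, was the member whose levels were spread the widest. In MDA-MB468 it was at 72.63 CPM in parental control cells and at 144.8 CPM after Acetalax, but at 134.1 and 137.0 CPM in CE cells. In BT549 it was at 207.4 and 182.2 CPM in parental cells and at 9.66 and 21.22 CPM in CE cells. The treated library was thus near 2-fold higher in MDA-MB468 parental and BT549 CE cells (log2 1.00 and 1.13), nearly level in MDA-MB468 CE cells (0.03) and lower in BT549 parental cells (-0.19). The fit over the backgrounds gave 0.57 (SE 0.24, edgeR adjusted p = 0.162).

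The remaining phosphatases and the Spred genes moved little and in mixed directions. DUSP1, an immediate-early phosphatase of p38, JNK and ERK (chromosome 5, 172195093 to 172198198, minus strand, hg19), was at 44.05 and 42.02 CPM in MDA-MB468 parental cells without and with Acetalax and at 38.01 and 31.39 CPM in CE cells. In BT549 it was at 63.06 and 82.05 CPM in parental cells and at 56.41 and 65.51 CPM in CE cells. Treated libraries were the lower ones in MDA-MB468 and the higher ones in BT549, except that with DESeq2 size factors the MDA-MB468 parental pair turned to a log2 ratio of 0.01. DUSP10, which acts on p38 and JNK (chromosome 1, 221874766 to 221915518, minus strand, hg19), was between 4.528 and 10.17 CPM in the 8 libraries. It went from 8.205 to 8.338 CPM in MDA-MB468 parental and from 4.756 to 6.208 CPM in BT549 parental cells, and from 10.17 to 6.645 CPM and from 5.789 to 4.528 CPM in the CE cells of these lines. Its treated libraries were the higher ones in parental cells and the lower ones in CE cells.

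SPRED1, which carries the RAS inactivator neurofibromin to the membrane (chromosome 15, 38544527 to 38649450, plus strand, hg19), went from 18.90 to 25.71 CPM and from 19.62 to 24.20 CPM in MDA-MB468 parental and CE cells. It went from 19.14 to 13.77 CPM and from 13.35 to 10.48 CPM in BT549 parental and CE cells. SPRED2, which has the same role (chromosome 2, 65537985 to 65659771, minus strand, hg19), was at 39.77 and 46.22 CPM in MDA-MB468 parental cells and 46.19 and 40.01 CPM in CE cells. It was at 27.31 and 16.65 CPM in BT549 parental cells and 21.79 and 16.35 CPM in CE cells. Both Spred genes were thus lower after Acetalax in each BT549 pair, by at most 0.71 on the log2 scale. The log2 fold changes over the 4 backgrounds were 0.15 for DUSP1, -0.05 for DUSP10, 0.07 for SPRED1 and -0.19 for SPRED2, with edgeR adjusted p from 0.481 to 0.891.

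**Figure D2:**
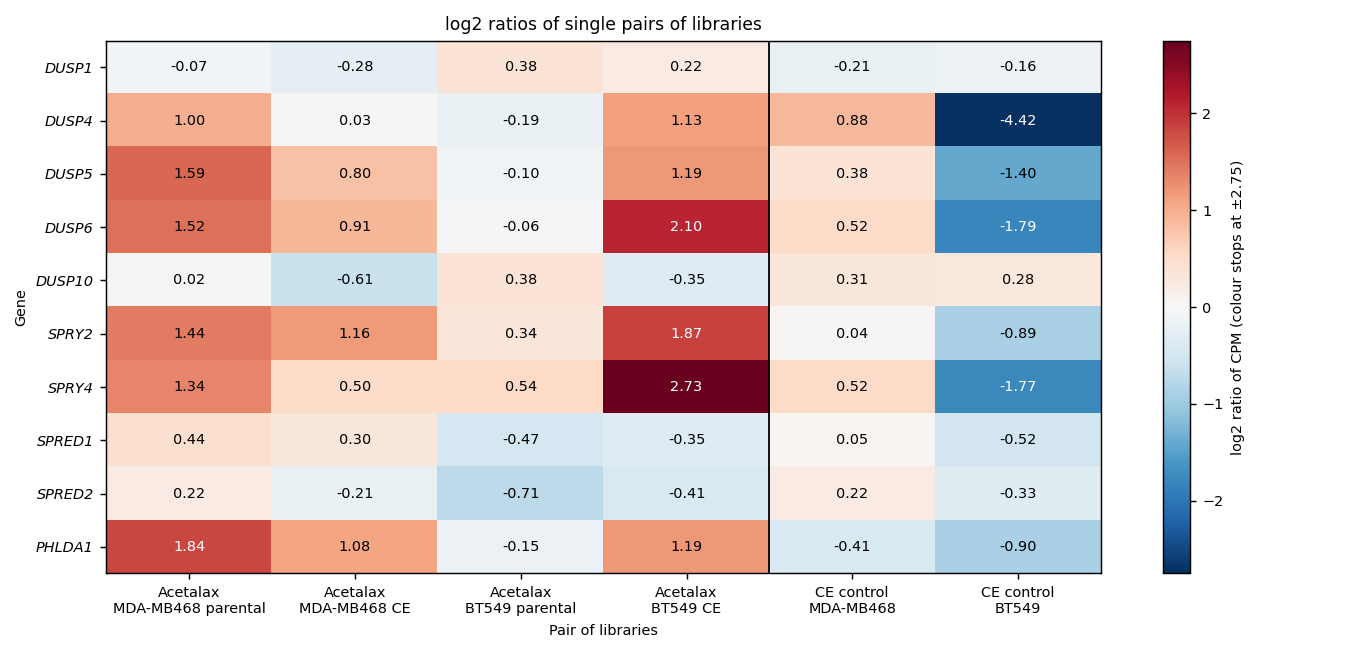
Log2 ratios of CPM of each member (rows) in 6 pairs of single libraries (columns), with the ratio printed in each cell. Red is higher and blue lower after Acetalax (left of the line) or in CE than in parental control cells (right of it). The last column, BT549 CE against parental control cells, is blue for 9 of 10 members, down to -4.42 for DUSP4.

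The question of whether the response held in each line was asked in a fit with an Acetalax term for each line, in which parental and CE cells are the replicates. In MDA-MB468, PHLDA1 (1.53, SE 0.31, edgeR adjusted p = 0.0327) and SPRY2 (1.36, SE 0.32, edgeR adjusted p = 0.0485) rose, 2 of 10 members against 6.64% of genes called. DESeq2 called SPRY2 and DUSP5 (DESeq2 adjusted p of DUSP5 = 0.00505) and not PHLDA1 (0.0535), and edgeR with DESeq2 size factors called all 3 (edgeR adjusted p of DUSP5 = 0.0461). Of all 19693 genes, these 2 alternatives called 1689 and 1535. In BT549, SPRY2 rose (1.22, SE 0.33, edgeR adjusted p = 0.0484), 1 of 10 members against 13.0% of genes called. SPRY4, with the largest fold change there (1.74, SE 0.48), had an edgeR adjusted p of 0.0528. The response differed between the lines for 0 of 10 members by edgeR (1.78% of genes were called), and for 0 of 10 by DESeq2. At an unadjusted p under 0.05 there were 2 members, DUSP1 (BT549 minus MDA-MB468, 0.52, SE 0.17, edgeR adjusted p = 0.184) and SPRED1 (-0.73, SE 0.22, edgeR adjusted p = 0.152). Of all 19693 genes, 3403 were at that level in edgeR.

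**Figure D3:**
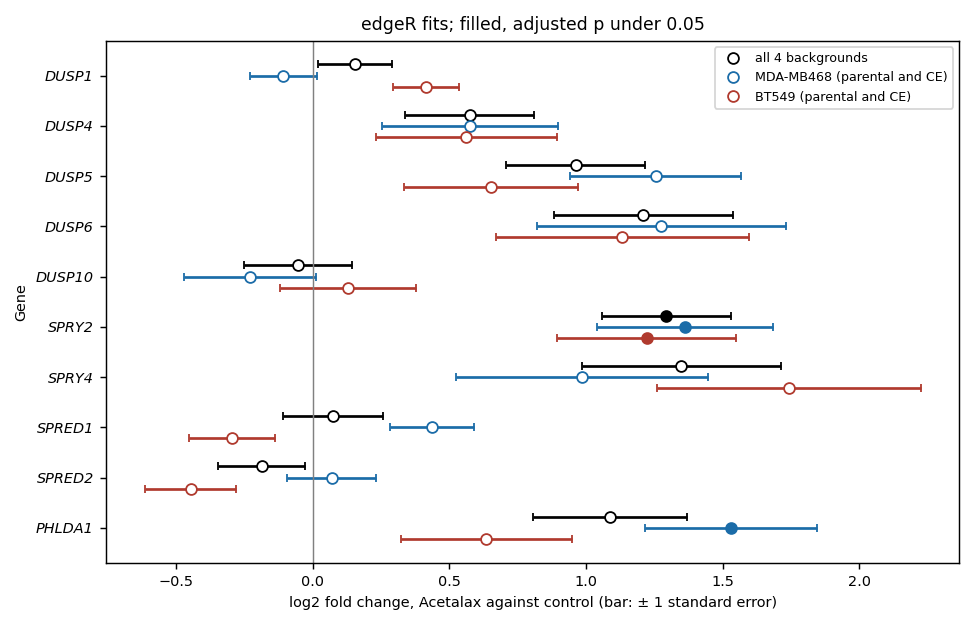
Log2 fold change of each member after Acetalax in edgeR fits over all 4 backgrounds (black), in MDA-MB468 (blue) and in BT549 (red), with bars of 1 standard error. Filled points have an adjusted p under 0.05: SPRY2 in all 3 fits and PHLDA1 in MDA-MB468.

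Parental and CE cells were compared in their response to Acetalax with the lines as replicates. In parental cells edgeR called 0 of 10 members and 0% of genes (1710 genes at an unadjusted p under 0.05, of members SPRY2, and 90 genes by DESeq2 with 0 members). In CE cells it called 0 of 10 members and 0% of genes (2311 genes at an unadjusted p under 0.05 with 5 members, and 357 genes by DESeq2 with 1 member, SPRY2). The difference of the responses, CE minus parental, was called for 0 of 10 members and 0% of genes by edgeR and for 0 genes by DESeq2, with 91 genes and 0 members at an unadjusted p under 0.05 in edgeR. For 8 members, all except DUSP1 and DUSP10, the difference had opposite signs in the 2 lines, and for the Spred genes it was at most 0.42 in size. In MDA-MB468 the log2 ratio after Acetalax was smaller in CE than in parental cells for DUSP5 (by -0.79), DUSP6 (-0.61), SPRY2 (-0.27), SPRY4 (-0.84), PHLDA1 (-0.76) and DUSP4 (-0.96). In BT549 it was larger in CE cells for each of these genes, by 1.29, 2.16, 1.53, 2.18, 1.34 and 1.32 in the same order. These are differences of single pairs, with counting error as their only error.

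Without drug, CE cells of BT549 had lower levels of most members than their parental cells. DUSP4 was 21.4-fold lower (524 against 8763 counts, log2 -4.42, interval -4.55 to -4.30), and 0.0988% of genes had a ratio that low. DUSP6 was 3.46-fold, SPRY4 3.41-fold and DUSP5 2.64-fold lower, so that 4 of 10 members were at least 2-fold lower where 5.18% of genes were. PHLDA1 (log2 -0.90), SPRY2 (-0.89), SPRED1 (-0.52), SPRED2 (-0.33) and DUSP1 (-0.16) were lower by less, and DUSP10 was higher (0.28). In MDA-MB468 the members were nearer to their parental level: 0 of 10 were 2-fold lower (2.15% of genes were), and the ratios ran from -0.41 for PHLDA1 to 0.88 for DUSP4. DUSP5, DUSP6, SPRY4 and DUSP4 were higher in MDA-MB468 CE than in parental control cells (log2 0.38, 0.52, 0.52 and 0.88), with counting intervals above 0, where in BT549 they were lower.

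The 2 lines together gave no call for CE against parental control cells: edgeR called 0 of 10 members and 0% of 18377 genes, with 610 genes and of members PHLDA1 (-0.65, SE 0.21) at an unadjusted p under 0.05, and DESeq2 called 49 genes and 0 members. DUSP4, with the largest mean change (-1.75), had an SE of 1.74. In the same pair of BT549 control libraries, the mesenchymal transcripts FN1, VIM and CDH2 went from 1629 to 592.5, from 1327 to 863.8 and from 222.8 to 109.5 CPM, and the keratins KRT8 and KRT18 from 1.254 to 34.38 and from 6.673 to 47.93 CPM. Of the whole lists, 4 of 4 mesenchymal markers were lower and 4 of 5 epithelial markers higher in the CE control, with CDH1 and EPCAM below 1 CPM in both. Their part in the levels of the feedback genes was not tested.

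After Acetalax, BT549 CE cells no longer had the lower levels for DUSP6, SPRY2, SPRY4 and PHLDA1. These were at 96.22, 152.0, 154.7 and 451.7 CPM in treated CE cells and at 74.40, 97.55, 116.1 and 332.0 CPM in treated parental cells. DUSP5 was nearly level (27.49 against 29.68 CPM), and DUSP4 was still 8.58-fold lower (21.22 against 182.2 CPM). In treated MDA-MB468 cells all 10 members were lower in CE than in parental cells, from log2 -0.08 for DUSP4 to -1.18 for PHLDA1. Ratios as low as these 2 were found for 33.15% and 2.13% of genes, and the median over all genes was 0.06. The counting intervals of DUSP6 (-0.23 to 0.04) and SPRED1 (-0.20 to 0.03) included 0. The control library of BT549 CE cells enters both the comparison with parental cells and the ratio after Acetalax, so a low value in it lowers the first and raises the second.

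More members were called between the lines than for Acetalax over the 4 backgrounds (6 against 1, where the latter called 5.00% of genes). The sizes of these 2 kinds of difference were not compared by a test. Over the 4 conditions, DUSP1 (log2 0.94, SE 0.16), DUSP6 (2.48, SE 0.37), PHLDA1 (2.76, SE 0.36), SPRY2 (1.58, SE 0.23) and SPRY4 (2.16, SE 0.41) were higher and SPRED2 (-0.93, SE 0.19) lower in BT549 than in MDA-MB468. These 6 calls had edgeR adjusted p from 0.00107 to 0.00626, and 56.8% of genes were called in this comparison. Its p-values measure the spread of the line difference over the 4 conditions, not between separate cultures of a line. DUSP4, DUSP5, DUSP10 and SPRED1 were not called (edgeR adjusted p from 0.0920 to 0.429). Per length of exon (FPKM, counts scaled by merged exon length and library total), the order of levels in MDA-MB468 parental control cells was DUSP1 (21.9), DUSP4 (9.99), DUSP5 (9.81), SPRED2 (7.22), PHLDA1 (6.40), SPRY2 (6.09), DUSP10 (2.90), SPRED1 (2.44), SPRY4 (1.79) and DUSP6 (1.68). DUSP4 and DUSP5 are neighbours that differ little on this scale. In BT549 parental control cells PHLDA1 was at 62.4, DUSP1 at 31.3, DUSP4 at 28.5, SPRY2 at 24.0, DUSP6 at 20.1, DUSP5 at 12.6, SPRY4 at 12.2, SPRED2 at 4.96, SPRED1 at 2.47 and DUSP10 at 1.68 FPKM. DUSP6 was thus lowest of the members in MDA-MB468 parental control cells and above 5 of them in BT549 parental control cells.

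The members' profiles over the 8 libraries were compared after each line's own mean log2 CPM had been taken away. DUSP5, DUSP6, SPRY2, SPRY4 and PHLDA1 had Pearson correlations between 0.711 and 0.955 with each other, the highest for DUSP6 with SPRY4 (0.955) and with DUSP5 (0.953). Many genes outside the members were as alike. Ranked by likeness to SPRY4 among the 11135 genes, DUSP6 stood at 20 and PHLDA1 at 1004. The 8 points share lines, controls and treatment, so these values are a description. Among the 11135 genes, the one most like each member was SPATA2L for SPRY2 (r = 0.996), CBLL1 for SPRY4 (0.986), CLDN1 for DUSP6 (0.987), RAB21 for DUSP5 (0.988), DNAJC6 for PHLDA1 (0.990), SPATA13 for DUSP4 (0.992), HNRNPA2B1 for DUSP1 (0.969), CTC-575D19.1 for DUSP10 (0.954), PDGFB for SPRED1 (0.984) and QSER1 for SPRED2 (0.974). CLDN1, a tight junction protein, was at 18.8 and 69.16 CPM in MDA-MB468 parental cells without and with Acetalax and at 25.48 and 76.27 CPM in CE cells. In BT549 it was at 109.2 and 137.8 CPM in parental cells and at 26.49 and 152.3 CPM in CE cells.

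Other genes of the pathway were read from 6 lists with 61 genes, chosen with earlier results of these data known. Counts for these lists are therefore a description. Over the 4 backgrounds 5.00% of the 19693 genes tested were called. The share of all genes with a fold change above 0 was not computed. Without MDA-MB468 parental cells edgeR called 0 genes in all, so the calls given for these lists over the 4 backgrounds were lost in that fit. Of the 5 other MAPK phosphatases of the DUSP family (DUSP2, DUSP7, DUSP8, DUSP9 and DUSP16), all had a log2 fold change above 0 over the 4 backgrounds, with a median of 0.84 beside -0.04 over all genes, and edgeR called 0 of 5. Their values ran from 0.05 for DUSP9 to 1.04 for DUSP7, a cytoplasmic ERK phosphatase close to DUSP6 (edgeR adjusted p = 0.0785). DUSP7 went from 14.03 to 50.52 CPM in MDA-MB468 parental and from 77.38 to 64.97 CPM in BT549 parental cells. In CE cells it went from 11.69 to 30.05 CPM in MDA-MB468 and from 36.47 to 65.33 CPM in BT549. Of the 11 atypical DUSP genes 9 were tested and 3 were above 0, with a median of -0.07. DUSP3, which acts on ERK and JNK, rose by 0.73 (SE 0.10, edgeR adjusted p = 0.0310), the lowest was DUSP19 (-1.67, at most 1.857 CPM), DUSP26 was at or near 0 counts and DUSP14 was not used here.

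Among 13 other Sprouty, Spred and PHLDA genes and their partners, 8 were above 0 (median 0.09), and 1 was called. For this list and those that follow in this paragraph, the share of all genes called was 5.00%. PHLDA2, a relative of PHLDA1, rose by 1.29 (SE 0.20, edgeR adjusted p = 0.0326), while SPRY1 had the lowest value (-0.44). PHLDA2 went from 51.49 to 158.8 CPM in MDA-MB468 parental cells and from 18.05 to 24.21 CPM in BT549 parental cells, and from 51.46 to 125.1 CPM and from 9.071 to 24.95 CPM in the CE cells of these lines. Of 12 genes of the core cascade 10 were above 0 (median 0.17), and the receptor EGFR was the 1 called, with a rise of 1.01 (SE 0.17, edgeR adjusted p = 0.0367). EGFR went from 3748 to 10470 CPM in MDA-MB468 parental and from 313.8 to 378.6 CPM in BT549 parental cells, and from 3285 to 6946 CPM and from 249.6 to 440.0 CPM in their CE cells. MAPK3, which encodes an ERK, had the lowest value (-0.11). Among 10 kinases of the stress branches 4 were above 0 (median -0.02). MAP2K3, an activator of p38, rose by 1.71 (SE 0.26, edgeR adjusted p = 0.0326), and MAP2K6, another p38 activator at no more than 6.6 CPM, fell by 1.98 (SE 0.32, edgeR adjusted p = 0.0340).

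All of 10 genes outside the members that are known as outputs of ERK had a fold change above 0 (median 0.80). Of these, 2 were called, where 5.00% of all genes were. This list too was chosen with earlier results of these data known, so its counts are a description. The growth regulator MYC rose by 0.79 (SE 0.12, edgeR adjusted p = 0.0323) and the cytokine LIF by 2.79 (SE 0.50, edgeR adjusted p = 0.0377). FOSL1, an AP-1 subunit, had the largest value, 3.06, and was not called (SE 0.77, edgeR adjusted p = 0.0595), and EPHA4 the lowest, 0.41. FOSL1 went from 6.642 to 360.1 CPM in MDA-MB468 parental and from 279.9 to 370.2 CPM in BT549 parental cells, and from 19.32 to 171.0 CPM and from 68.49 to 454.8 CPM in their CE cells. In the fit for each line, 6 of these 10 genes were called higher in MDA-MB468, where 6.64% of all genes were called in either direction, and 3 in BT549, where 13.0% were. For CE against parental control cells 2 of the 10 were above 0, with a median of -0.37 beside -0.47 for the feedback genes and 0.01 for all genes, and 0 were called.

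**Figure D4:**
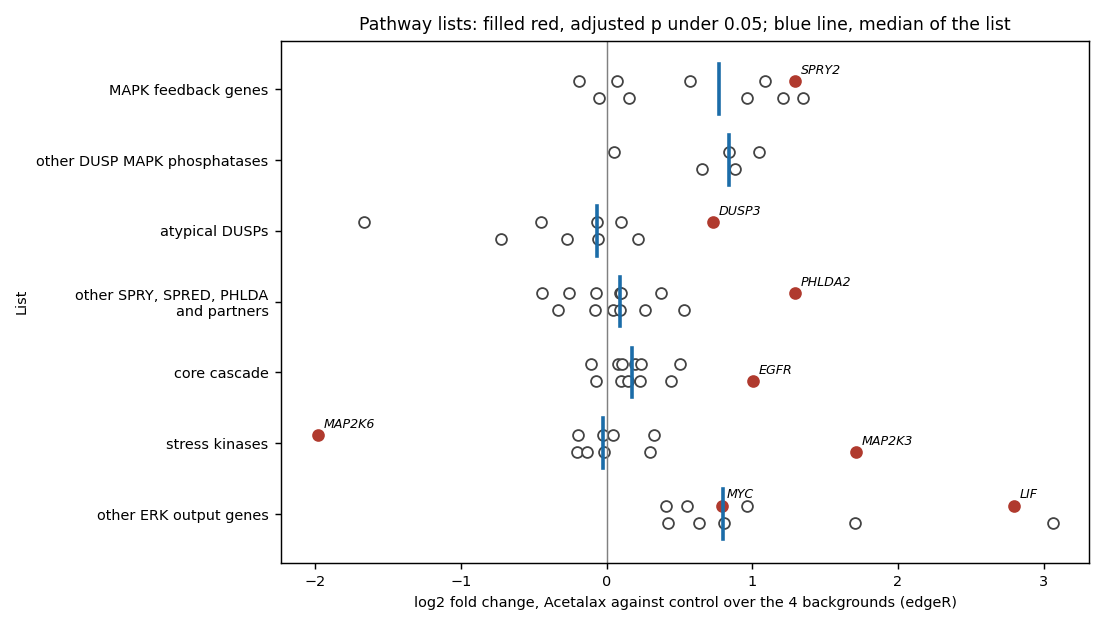
Log2 fold change after Acetalax over the 4 backgrounds (edgeR) for the feedback genes and 6 lists of other pathway genes, 1 point for each gene. Red points have an adjusted p under 0.05 and are named, and blue lines are list medians, which run from -0.07 for the atypical DUSP genes to 0.84 for the other DUSP phosphatases of MAP kinases.

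Some exons of the members are shared with transcripts of the opposite strand. PHLDA1-AS1 shares 553 bases of exon with PHLDA1 and had at most 11 counts in a library, and another opposite transcript shares 1105 bases with DUSP6 and was not analysed here. Which strand column was counted is not given in the sources used here, so how reads from these shared bases were counted is not known.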

How the data were processed

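Reads of polyA-selected, directional paired-end libraries (MDA-MB468 and BT549, 8 libraries) had been aligned by the authors to hg19 with STAR (2.7.11b in the submitters' processing notes), and the authors deposited raw counts per gene from its GeneCounts option, not normalized. The annotation used is not given in the sources used here. The table had 58154 rows for 55679 identifiers. Of these, 1392 were repeated and kept once (3 with differing counts), 28 symbols turned into dates were restored, and 0 columns of other samples were present. CPM used total counts on genes, log2 ratios of pairs had 0.5 counts added, and their 95% intervals (normal approximation for ratios, Wilson for CPM) cover counting error only. FPKM used merged exons of an hg19 GENCODE annotation. Genes were tested with edgeR 4.0.16 in R 4.3.3 (quasi-likelihood test, TMM, filterByExpr, Benjamini-Hochberg adjustment, threshold 0.05) with an intercept for each background, line or condition. Since the labels do not give separate cultures of a condition, p-values measure the spread between lines or backgrounds. For BT549 against MDA-MB468 they measure the spread of the line difference over the 4 conditions. The edgeR steps were run on simulated data with known changes for the fit over the 4 backgrounds and that between the lines. The other fits were not simulated. Alternatives were DESeq2 1.42.0, its size factors, no filter on low counts, another pseudocount, FPKM, and leaving out each background. The count of members past 2-fold was recomputed under alternatives chosen after seeing the data. The 10 members, the gene lists and the motifs were chosen with earlier results of these data known. All members were named, and from each list the called genes and the largest rise and fall.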

Additional observations from a re-analysis of the deposited data

Results flagged for a closer look

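For 3 members the direction after Acetalax was opposite between groups in every pair of libraries, while the edgeR test of the difference itself did not pass. The share of all genes with such a split was not computed, so the 3 cases are a description only. DUSP1 was higher in both BT549 pairs (log2 ratios 0.38 and 0.22) and lower in both MDA-MB468 pairs (-0.07 and -0.28), a difference of 0.52 between the lines (SE 0.17, edgeR adjusted p = 0.184), and with DESeq2 size factors the MDA-MB468 parental ratio was 0.01. SPRED1 went the other way, higher in both MDA-MB468 pairs (0.44 and 0.30) and lower in both BT549 pairs (-0.47 and -0.35), a difference of -0.73 (SE 0.22, edgeR adjusted p = 0.152). DUSP10 was higher in both parental pairs (0.02 and 0.38) and lower in both CE pairs (-0.61 and -0.35), a difference between CE and parental cells of -0.64 (SE 0.40, edgeR adjusted p = 1). The interval of its first ratio, -0.18 to 0.22, includes 0. So does that of the DUSP1 ratio in MDA-MB468 parental cells, -0.16 to 0.02.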

How the results depend on the processing

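The labels give no replicate numbers that could serve as a block, and the fits of Acetalax pair each treated library with the control of its background. For Acetalax over the 4 backgrounds, 984 genes and 1 member were called, against 3585 and 6 when every gene with at least 1 count was kept and 2913 and 5 with DESeq2. Leaving out a background gave from 0 to 554 genes and from 0 to 4 members: 0 genes without MDA-MB468 parental cells, 554 without MDA-MB468 CE cells, 263 without BT549 CE cells (each with 0 members) and 311 without BT549 parental cells (4 members). Without the filter, calls went from 0 to 643 genes and 3 members for parental cells, from 0 to 1080 and 6 for CE cells, from 0 to 3 genes for their difference, from 351 to 1632 genes and from 0 to 2 members for the difference between lines, and from 0 to 45 genes for CE against parental control cells. For MDA-MB468 they went from 1307 to 2945 genes and from 2 to 6 members, and for BT549 from 2558 to 4181 genes and from 1 to 6 members. DESeq2 called 90 genes in parental cells, 357 genes and 1 member in CE cells, 941 genes for the difference between lines and 49 for CE against parental control cells. In BT549 it called 3014 of 19693 genes and 2 members (DUSP1 and SPRY2). With DESeq2 size factors edgeR also called 2 members in BT549 (SPRY2 and SPRY4), beside 2811 of 19693 genes. With all 8 libraries as 4 pairs of CE and parental cells, 23 genes were called and 0 members. On the log2(FPKM + 1) scale 1 member instead of 2 was at least 2-fold higher in MDA-MB468 CE cells, 4 instead of 5 in MDA-MB468 parental cells and 5 instead of 6 in BT549 CE cells, while scaling by TMM or by DESeq2 size factors gave 6 in MDA-MB468 parental cells. Of 350 fold changes of single members under other settings, 39 passed the threshold anew, 4 no longer passed and 0 reversed. The cause of these differences was not tested. The lowest count of a member in a library was 201, and with 1 library per condition no value has a replicate of its own.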
